A study of Mus musculus with 9 samples.

Results

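The Lce1 genes make up the largest group of the late cornified envelope family, and 10 of them were followed here: Lce1a1, Lce1a2, Lce1b, Lce1c, Lce1d, Lce1e, Lce1f, Lce1g, Lce1h and Lce1i. They were taken from the table by gene symbol, and each of the 10 had exactly 1 row among the 38203 genes of the expression table. All 10 passed the filter that left 16897 genes for testing, an average above 0.1 FPKM in at least 1 genotype. FPKM counts fragments per kilobase of exon, scaled to the mapped fragments of a library, and is therefore a level per length, so that levels of different genes can be set side by side.

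The libraries were made from the purified epidermis of single E18.5 mouse embryos on a mixed C57BL6/129Sv background. WT embryos (n = 2) are labelled wild type for both Esrp1 and Esrp2, genes of splicing regulators found in epithelia. KO embryos (n = 3) lacked Esrp1 and kept both alleles of Esrp2, KH embryos (n = 2) lacked Esrp1 and carried 1 working allele of Esrp2, and DKO embryos (n = 2) lacked both genes. The deletions were germline, so that they were present in every cell of the embryo and not only in the skin, and trunk skin was the source of the tissue. A line on RNA extraction gives the controls as Esrp2-/-, against the sample labels, but Esrp2 stood at 118.1 and 135.8 FPKM in the WT libraries and at 0.0843 and 0.0463 FPKM in DKO. Esrp1 transcript was measured at 119.0 and 141.9 FPKM in WT and between 18.2 and 55.1 FPKM in the other 7 libraries, all of them labelled as lacking the gene. The Esrp1 deletion takes out internal exons and shifts the reading frame, so that a level over the whole gene is no check of its loss.

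Late cornified envelope proteins are small, cysteine-rich proteins that keratinocytes make at the very end of their differentiation, as they pass from the granular layer into the dead, flattened cells of the skin surface. Transglutaminases cross-link them, with loricrin, filaggrin, involucrin and the small proline-rich proteins, onto the inside of the cell membrane, and the resulting envelope is part of the barrier that keeps water in. The genes sit side by side in the epidermal differentiation complex, and the Lce1 group is made in normal, uninjured skin, whereas Lce3 genes are known for being switched on in damaged or inflamed skin.

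The 10 genes lie on chromosome 3 between positions 92646535 and 92778899 (GRCm38, GENCODE M21), with 9 on the minus strand and Lce1c on the plus strand. In that annotation each has a single transcript of 2 exons, with the coding sequence wholly inside the second exon, and no other annotated gene overlaps any of them. Their transcripts are 647 to 925 bases long and their coding sequences 399 to 447 bases. The stretches just upstream of 5 of them are shown, and a link between these sequences and the levels was not tested. They belong to the most abundant member (Lce1a1), the least abundant (Lce1h) and the one on the other strand (Lce1c). The others belong to a pair, Lce1a2 and Lce1e, whose levels relative to the group lay outside the range of the other libraries in DKO. The 120 bases before the RefSeq start (GRCm38.p6, read 5′ to 3′ on the gene's strand) are chr3:92648308-92648427 for Lce1a1, chr3:92670316-92670435 for Lce1a2, chr3:92709075-92709194 for Lce1e and chr3:92765066-92765185 for Lce1h, all on the minus strand, and chr3:92679127-92679246 on the plus strand for Lce1c. Capitals mark the best conserved run of 13 bases and, nearer the start, a run of 6 bases that all members with a sequence share.
Lce1a1: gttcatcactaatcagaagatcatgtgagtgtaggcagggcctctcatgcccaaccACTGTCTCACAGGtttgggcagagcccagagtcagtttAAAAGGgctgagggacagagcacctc
Lce1a2: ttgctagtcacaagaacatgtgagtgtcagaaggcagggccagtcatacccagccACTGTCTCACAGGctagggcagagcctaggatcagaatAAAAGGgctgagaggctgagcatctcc
Lce1c: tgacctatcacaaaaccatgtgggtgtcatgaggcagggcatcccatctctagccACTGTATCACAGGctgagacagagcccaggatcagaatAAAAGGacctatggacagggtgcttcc
Lce1e: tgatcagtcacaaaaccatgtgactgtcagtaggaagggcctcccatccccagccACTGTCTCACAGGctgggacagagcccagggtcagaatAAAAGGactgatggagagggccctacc
Lce1h: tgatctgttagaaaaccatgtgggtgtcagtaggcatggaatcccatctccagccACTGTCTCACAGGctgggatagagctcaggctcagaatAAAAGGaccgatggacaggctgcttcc

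RefSeq promoter windows, 300 bases from 250 before to 50 after the start, were at hand for 9 of the 10 members, Lce1f being the exception. In all 9 the run ACTGTNTCACNGG, identical at 11 of 13 positions, begins 64 or 65 bases before the start. These 9 were the only ones of 32851 mouse promoter windows that held it on either strand (0.0274%), a count that the choice of the run from the members themselves makes small. The run AAAAGG begins 26 or 27 bases before the start in all 9, and 113 windows (0.344%) held it at that distance, those of Lce1j, Lce1l, Lce1m, Lce3e and Lce3f among them. Pairwise identity over the 300 bases ranged from 58.6% (Lce1c and Lce1d) to 86.0% (Lce1g and Lce1i), with a median of 66.8% over 36 pairs. Of 7 motifs looked for on both strands, the letters TATAAA of the classical core promoter element were found in Lce1d only, at the place of the shared run of 6 bases and overlapping it, where 13.6% of all windows held them somewhere. The antioxidant response element TGACNNNGC was likewise found in Lce1d only (12.4% of all windows). The other 5 had no match in the 9 windows: the AP-1 letters TGANTCA (7.81% of all windows), the grainyhead-like letters AACCNGTT (2.09%), the Krüppel-like factor letters CCACCC (31.5%), the ETS letters CCGGAAG (8.86%) and the C/EBP letters TTGCGNAA (0.798%).

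The Lce1 genes were among the most abundant transcripts of the epidermis. In WT the members ranked between place 36 (Lce1a1) and place 239 (Lce1h) of all genes by mean FPKM. The 10 together summed to 18016 and 14171 FPKM in the WT libraries, 2.01% and 1.63% of all FPKM in those libraries.

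In KO, KH and DKO the Lce1 sums of single libraries differed more than the genotype means did, which in WT they did not. The Lce1 sum was 4592, 13992 and 14105 FPKM in KO, 4827 and 18296 FPKM in KH, and 17474 and 6558 FPKM in DKO. The mean was 16093 ± 2719 FPKM (SD, n = 2) in WT, 10896 ± 5460 (n = 3) in KO, 11562 ± 9524 (n = 2) in KH and 12016 ± 7719 (n = 2) in DKO. The higher library of a genotype exceeded the lower by 1.27-fold in WT, 3.07-fold in KO, 3.79-fold in KH and 2.66-fold in DKO. Each of the 3 mutant genotypes therefore held 1 library with a low Lce1 sum (KO replicate 1, KH replicate 1 and DKO replicate 2) beside libraries in or near the WT range.

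These 3 libraries also stand apart as a whole, with FPKM sums of 734747 in KO replicate 1, 713318 in KH replicate 1 and 771857 in DKO replicate 2, against 867380 to 1130713 in the other 6. Their summed granular and cornified layer markers (Lor, Flg, Flg2, Hrnr, Casp14, Cdsn, Klk7) lay between 4132 and 5674 FPKM, against 9448 to 12707 FPKM in the other 6, and 5 of the 7 markers were lower in each of the 3 than in any other library, as were 9.37% of all tested genes, while 9.49% were higher in each of the 3. The spinous layer markers (Krt1, Krt10, Dsg1a, Dsc1, Krtdap, Sbsn) summed to between 31893 and 38461 FPKM, against 60821 to 85782 FPKM, with 4 of 6 lower. Basal keratinocyte markers (Krt5, Krt14, Krt15, Trp63, Itgb4, Itga6, Col17a1) were on the other side, at 7406 to 8537 FPKM against 4137 to 6607 FPKM, with 5 of 7 higher in each of the 3 libraries, and hair follicle markers likewise, at 613 to 667 FPKM against 358 to 553 FPKM, with 4 of 7 higher. In libraries made from bulk tissue, fewer cells of a layer and less RNA per cell cannot be told apart. Fibroblast markers summed to 149.6 FPKM in KO replicate 1, 138.4 FPKM in KH replicate 1 and 75.3 FPKM in DKO replicate 2, against 44.2 to 89.9 FPKM in the other 6, with 2 of 6 higher in each of the 3. Most of this was Dcn, while Col3a1 (5.39 FPKM), Col1a2 (4.69 FPKM), Col1a1 (2.65 FPKM) and Lum (0.518 FPKM) were all highest in KO replicate 1, the library with the lowest Lce1 sum. Of 5 muscle and 4 endothelial markers, which summed to at most 0.931 and 0.355 FPKM in a library, Ckm (0.516 FPKM) and Pecam1 (0.312 FPKM) reached the highest values, so that both lists were near 0 throughout, as the label of purified epidermis would have it. Red blood cell markers varied most, from 15.3 FPKM in KH replicate 1 to 1520 FPKM in DKO replicate 2, while immune cell markers lay between 3.44 and 25.7 FPKM and adipocyte markers between 6.66 and 109.6 FPKM. Melanocyte markers summed to 80.5, 148.1 and 204.0 FPKM in KO replicate 1, KH replicate 1 and DKO replicate 2, and to between 42.4 and 93.1 FPKM in the others. The part of any of these in the Lce1 levels was not tested.

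**Figure D1:**
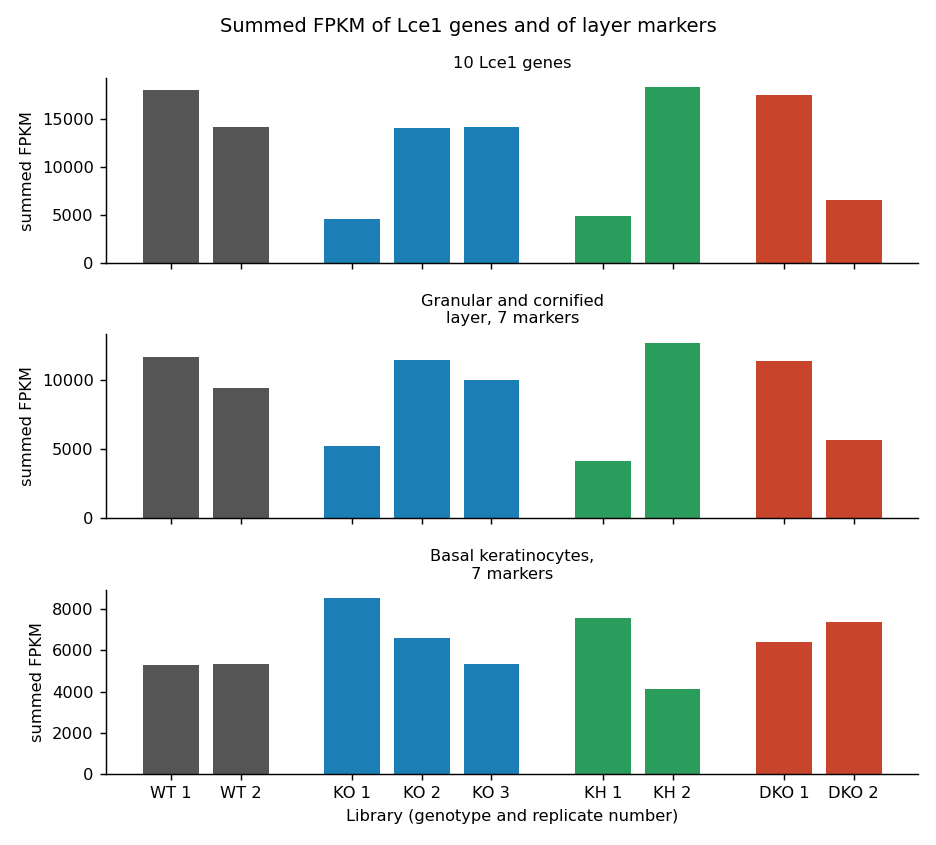
Summed FPKM of the 10 Lce1 genes (top), of 7 granular and cornified layer markers (middle) and of 7 basal keratinocyte markers (bottom) in each of the 9 libraries, with bars coloured by genotype and starting at 0. The Lce1 sum is lowest in KO replicate 1 (4592 FPKM), KH replicate 1 (4827 FPKM) and DKO replicate 2 (6558 FPKM), which also have the lowest granular and cornified sums and the highest basal sums.

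Lce1a1 and Lce1b were the most abundant members. Lce1a1 had 3329 and 2583 FPKM in WT, 926, 2757 and 2681 FPKM in KO, 927 and 3523 FPKM in KH, and 3216 and 1219 FPKM in DKO. Lce1b had 3126 and 2379 FPKM in WT, 747, 2386 and 2427 FPKM in KO, 820 and 2997 FPKM in KH, and 3055 and 1066 FPKM in DKO. In both genes the 3 low libraries were at less than the level of any other library, by a gap of 2.12-fold for Lce1a1 and 2.23-fold for Lce1b, and the remaining 6 libraries, which span all genotypes, lay between 2583 and 3523 FPKM for Lce1a1 and between 2379 and 3126 FPKM for Lce1b.

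Lce1a2, the neighbour of Lce1b, had 2724 and 2241 FPKM in WT, 731, 2271 and 2182 FPKM in KO, 680 and 2803 FPKM in KH, and 2204 and 703 FPKM in DKO. Lce1d had 2358 and 1798 FPKM in WT, 581, 1766 and 1688 FPKM in KO, 577 and 2449 FPKM in KH, and 2165 and 873 FPKM in DKO. Lce1c, the member on the plus strand, had 2252 and 1735 FPKM in WT, 572, 1627 and 1518 FPKM in KO, 492 and 2216 FPKM in KH, and 1837 and 736 FPKM in DKO. In these 3 genes KH replicate 2 and WT replicate 1 took the top places. The higher DKO library of Lce1a2 (2204 FPKM) stood just under its lower WT library (2241 FPKM), and the highest KO libraries of Lce1d and Lce1c just under theirs.

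The other 5 members were expressed at lower levels. Lce1i had 1125 and 927 FPKM in WT, 297, 884 and 1018 FPKM in KO, 369 and 1172 FPKM in KH, and 1073 and 392 FPKM in DKO. Lce1g had 751 and 671 FPKM in WT, 194, 604 and 759 FPKM in KO, 282 and 764 FPKM in KH, and 723 and 258 FPKM in DKO. Lce1h, the least abundant, had 530 and 445 FPKM in WT, 126, 374 and 477 FPKM in KO, 178 and 550 FPKM in KH, and 495 and 224 FPKM in DKO. In all 3, KH replicate 2 was the highest library and KO replicate 1 the lowest.

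Lce1e and Lce1f are next to each other in the cluster. Lce1e had 950 and 769 FPKM in WT, 216, 739 and 750 FPKM in KO, 307 and 921 FPKM in KH, and 1508 and 579 FPKM in DKO. Lce1f had 871 and 624 FPKM in WT, 202, 583 and 605 FPKM in KO, 195 and 901 FPKM in KH, and 1196 and 508 FPKM in DKO. For both genes DKO replicate 1 was the highest of all 9 libraries, and DKO replicate 2, although still among the 3 lowest, was separated from the next library by only 1.28-fold for Lce1e and 1.15-fold for Lce1f. For Lce1e and Lce1f, as for Lce1c and Lce1d, all KO libraries were below both WT libraries, which makes 4 of 10 members, where 12.1% of all tested genes were placed so. In DKO this held for Lce1a2 alone (1 of 10, against 26.4% of all tested genes). No member had every KO, KH or DKO library above both WT libraries (0 of 10 each, against 12.6%, 15.3% and 27.8% of all tested genes), and none had both KH libraries below them (0 of 10, against 16.6%). Across all 10 members the 3 lowest libraries were KO replicate 1, KH replicate 1 and DKO replicate 2, and 1583 of 16897 tested genes (9.37%) were lower in these 3 libraries than in all others.

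**Figure D2:**
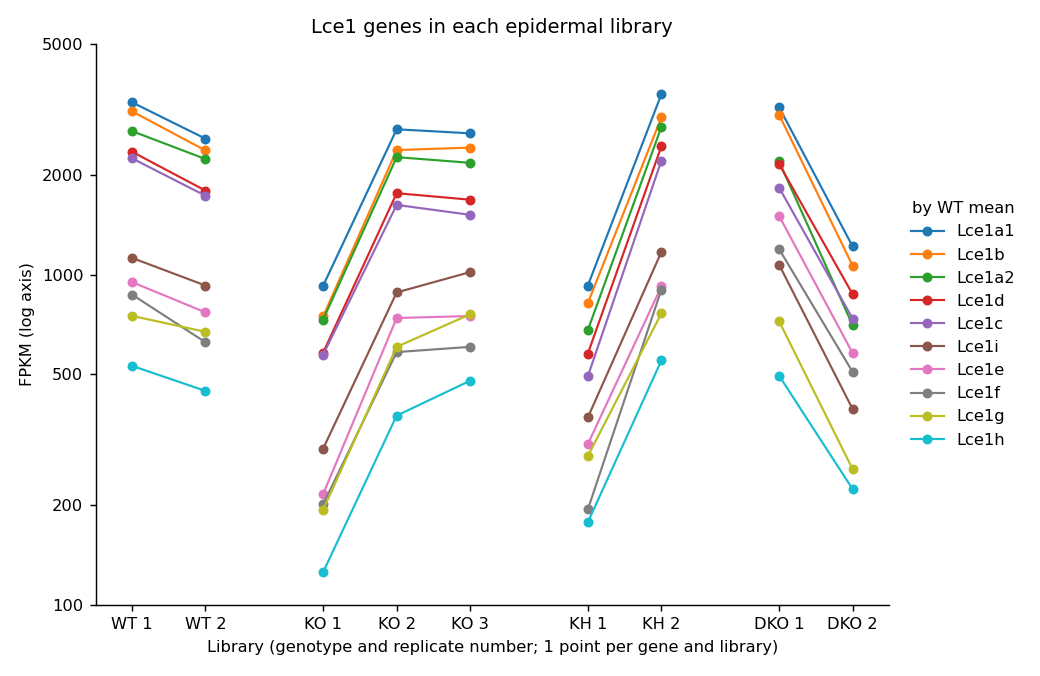
FPKM of the 10 Lce1 genes on a log axis (vertical) in the 9 libraries (horizontal, by genotype and replicate number), with 1 point per gene and library and lines joining the points of a gene within a genotype only to guide the eye. The genes keep nearly parallel paths, Lce1a1 highest and Lce1h lowest in all 9 libraries, and all 10 dip in KO replicate 1, KH replicate 1 and DKO replicate 2.

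The first comparison asks whether the envelope genes respond to the loss of both Esrps. Against WT, no Lce1 member was called in DKO (0 of 10), where a call required a Benjamini-Hochberg adjusted p below 0.05 from limma over all 16897 genes and average FPKM values that differed over 2-fold, and 0.728% of all tested genes were called. None of the 10 had an unadjusted p below 0.05, against 13.8% of all genes tested. The differences, DKO minus WT on the scale of log2(FPKM + 1), had a median of -0.59 over the 10 members and of 0.02 over all genes. They ran from -0.99 for Lce1a2 (standard error 0.83, adjusted p = 0.61) to 0.13 for Lce1e (standard error 0.75, adjusted p = 0.95), with 8 members below 0 and 2, Lce1e and Lce1f, above it. The 95% intervals reached from -2.89 to 1.88 over the members. The sign of the median rested on 1 library: without DKO replicate 2 the median was 0.07 with 8 of 10 members above 0, and without DKO replicate 1 it was -1.31 with none above 0.

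Loss of Esrp1 alone was compared next. In KO none of the 10 members was called against WT (0.0296% of all genes were called), none had an unadjusted p below 0.05 (4.53% of all genes did), all 10 differences lay below 0, and their median was -0.76, with members between -0.83 and -0.63 and adjusted p between 0.85 and 0.87 (limma, Benjamini-Hochberg). Without KO replicate 1 the median was -0.19. In KH, which also carried 1 disrupted allele of Esrp2, again 0 of 10 were called (0.0296% of all genes), none had an unadjusted p below 0.05 (3.72% of all genes did), the median was -0.74, the members lay between -0.92 and -0.61, and every member had an adjusted p of 0.98 (limma, Benjamini-Hochberg). Without KH replicate 1 the median turned to 0.18 with all 10 members above 0, and without KH replicate 2 it was -1.70 with all 10 below 0, still with no call. The 3 comparisons with WT share the WT libraries, so that their differences are not independent of each other.

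**Figure D3:**
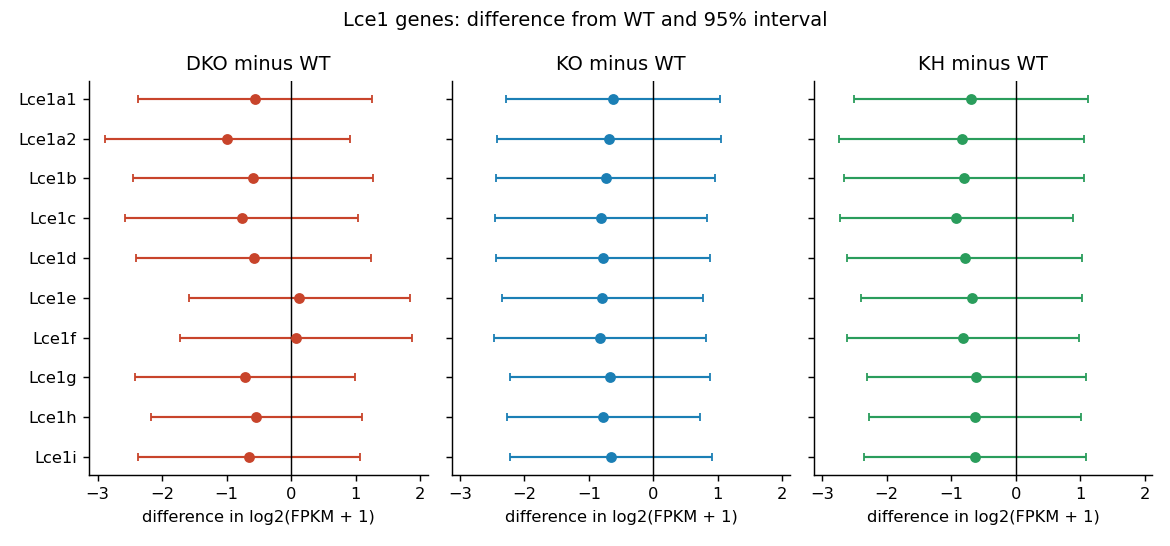
Difference from WT of each Lce1 gene in DKO, KO and KH (horizontal, log2(FPKM + 1) of the genotype minus WT), with points for the estimate and bars for the 95% interval from limma. Every interval crosses 0, and Lce1e (0.13) and Lce1f (0.08) in DKO are the only points to the right of it.

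The mutant genotypes were also set against one another. DKO against KO gave 0 of 10 members called (0.639% of all genes) and a median of 0.10, with Lce1a2 at -0.30 and Lce1e at 0.92 as the ends of the range. DKO against KH gave 0 of 10 (0.426% of all genes) and a median of 0.14, and KH against KO gave 0 of 10 (0% of all genes) and a median of 0.00, with 5 members on each side of 0. None of the members had an unadjusted p below 0.05 in any of the 6 comparisons, against 6.80% of all genes in DKO against KO, 5.71% in DKO against KH and 1.09% in KH against KO. The signs of these 3 medians changed with the libraries, for DKO against KH also with the scaling and for KH against KO with library weights. With FPKM rescaled to TPM, DKO against KH was at -0.05 (4 of 10 members above 0) and KH against KO at 0.15 (9 of 10). With library weights (arrayWeights), KH against KO was at -0.03 (4 of 10). Leaving out DKO replicate 1 gave -0.61 for DKO against KO and -0.53 for DKO against KH, while leaving out DKO replicate 2 gave 0.78 and 0.82. Leaving out KH replicate 1 gave -0.83 for DKO against KH and 0.90 for KH against KO, while leaving out KH replicate 2 gave 1.12 and -1.01. With KO replicate 1 left out, DKO against KO was at -0.42 and KH against KO at -0.54.

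The members also varied within genotypes. The residual SD of the members on the log2 scale was between 0.90 (Lce1h) and 1.02 (Lce1a2), where the median over all tested genes was 0.24, and placed each member above at least 98.9% of tested genes. With the 3 libraries of lowest FPKM sum left out, a choice made after the data were seen, DKO and KH kept 1 library each, assumed to vary like WT and KO. No member was called in that fit, which says nothing about stability, and the median difference from WT was 0.07 in DKO, -0.19 in KO and 0.18 in KH.

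Because the members move as a block, each was also expressed relative to the block, as its log2(FPKM + 1) minus the mean of the 10 members in the same library. Any factor that multiplies all Lce1 genes of a library alike very nearly cancels in this measure, and it was taken up after the values had been seen. The mean of the 10 ranged over 2.02 log2 units across the 9 libraries. The relative levels of single members had an SD of only 0.04 (Lce1b) to 0.17 (Lce1g) over the 7 libraries of WT, KO and KH, the 2 low libraries among them included. The members thus roughly kept their proportions over libraries that differed widely in Lce1 level. The widest range over these 7 libraries was 0.43, for Lce1g, whose share of the Lce1 sum ran from 4.17% to 5.85%. KH replicate 1, a low library, was lowest of the 7 for Lce1a2 (0.70) and Lce1f (-1.10) and highest for Lce1e (-0.45).

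Relative levels in DKO were then set against those of the other 7 libraries. Lce1e stood at 0.00 and 0.01 relative to the group mean in the DKO libraries and between -0.79 and -0.45 in the other 7, a difference of 0.65 or 1.57-fold. Its share of the Lce1 sum was 8.63% and 8.83% in DKO against 4.71% to 6.35% elsewhere. Both DKO libraries lay above all others, the low one and the high one alike.

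Lce1f, the next gene along the chromosome, stood at -0.33 and -0.18 in DKO and between -1.10 and -0.75 in the other 7 libraries, a difference of 0.66 or 1.58-fold. Its share was 6.85% and 7.74% in DKO against 4.03% to 4.93% elsewhere. Lce1a2 was on the other side, at 0.55 and 0.29 in DKO against 0.70 to 0.99, a difference of -0.46 or a ratio of 0.73, and its share was 12.6% and 10.7% against 14.1% to 16.2%. For each of the 3 genes the exact two-sided permutation test of 2 DKO against 7 other libraries gave p = 0.0278, the smallest of 36 arrangements, with no correction for the 10 members tested. The number of such members depends on the reference: with the median of the 10 in place of their mean, Lce1a1 (a difference of -0.17) and Lce1c (-0.23) had the same exact permutation p of 0.0278, which makes 5 members.

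By non-overlap, both DKO libraries lay above the other 7 for 2 of 10 members (Lce1e and Lce1f), where 0.574% of all tested genes did so by the same measure, and below them for 4 of 10 (Lce1a2, Lce1a1, Lce1g and Lce1i), where 1.08% of all genes did. Other genes are no part of the mean they are set against here, so these shares are no even match. Since the relative levels of the 10 sum to 0 in each library, some members had to go down where others went up. The gap for Lce1a1 was small, 1.095 and 1.083 in DKO against 1.117 to 1.306. The remaining 4, Lce1b, Lce1c, Lce1d and Lce1h, overlapped, with differences between -0.16 and -0.03 and exact permutation p of 0.194 to 0.806.

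**Figure D4:**
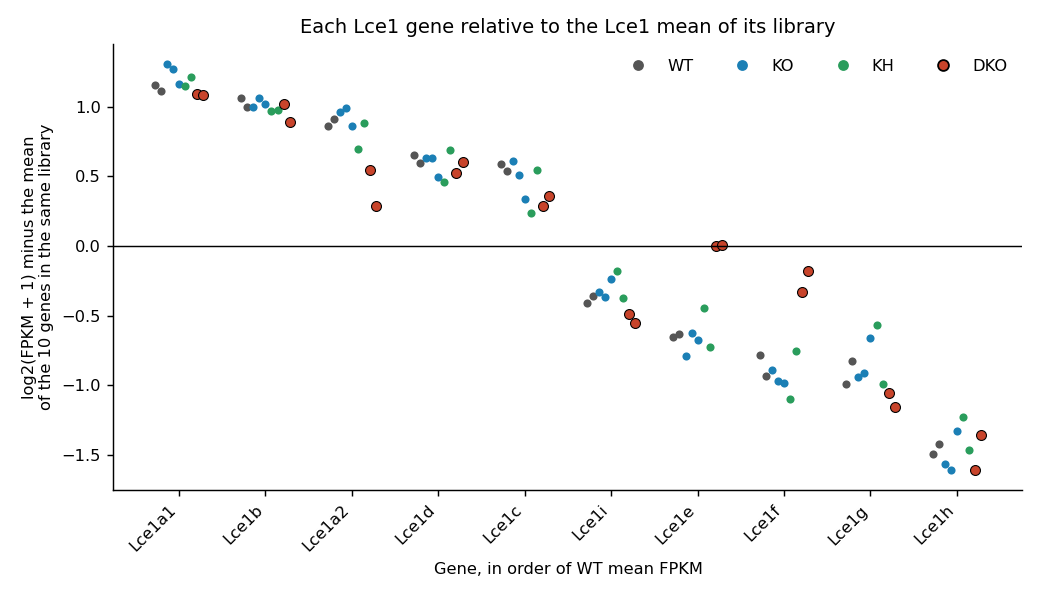
Level of each Lce1 gene relative to the Lce1 mean of its own library (vertical, log2(FPKM + 1) minus the mean of the 10 genes), with 1 point per library coloured by genotype and genes ordered by WT mean FPKM. The DKO points lie above all others for Lce1e (0.00 and 0.01) and Lce1f (-0.33 and -0.18) and below all others for Lce1a2 (0.55 and 0.29).

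The order of the members was compared as well. Lce1a1 was the highest and Lce1b the second highest in 9 of 9 libraries, and Lce1h was the lowest in 9 of 9. Lce1i held place 6 in all 7 libraries of WT, KO and KH and place 8 in both DKO libraries, where Lce1e took place 6 and Lce1f place 7. Both genes of a pair are measured in the same library, and within libraries 6 of 9 neighbouring pairs of the WT order stood in the same order in all 9. The ratio was 1.05 to 1.24 for Lce1a1 over Lce1b, 1.02 to 1.52 for Lce1b over Lce1a2, 1.014 to 1.186 for Lce1d over Lce1c, 1.33 to 2.00 for Lce1c over Lce1i, 1.02 to 1.58 for Lce1e over Lce1f and 1.15 to 1.62 for Lce1g over Lce1h. The order was not the same throughout for Lce1a2 over Lce1d (8 of 9 libraries), Lce1i over Lce1e (7 of 9) and Lce1f over Lce1g (5 of 9). Across libraries the WT ranges overlapped for 7 of the 9 pairs, all but Lce1c with Lce1i and Lce1g with Lce1h.

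Members of this family resemble each other in sequence, and reads that fit several of them may have been divided between them by the authors' software. Of all distinct words of 100 bases in a member's transcript, the length of 1 read, between 0% (Lce1a2) and 4.9% (Lce1e) occurred exactly in another Lce transcript, and of words of 50 bases between 13.8% (Lce1f) and 25.4% (Lce1d). For Lce1e the gene sharing most of the 100-base words was Lce1j (16 of 612). Of words of 25 bases, between 38.3% (Lce1f) and 62.0% (Lce1i) were shared. The authors' alignment allowed mismatches, so exact words understate how many reads could fit several members. The part of shared reads in the altered proportions was not tested.

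The rest of the cluster, 13 further Lce and neighbouring genes, was compared in the same way. Of these, 6 of 13 rose in DKO against WT, all of them Lce3 genes, where 0.479% of all tested genes were called higher, and none was called in KO or KH (0.0296% of all genes in each). Lce3d (listed in the table as Gm9782) had 0.177 and 0.212 FPKM in WT and 95.8 and 103.9 FPKM in DKO, a log2 difference of 6.399 (standard error 0.29, adjusted p = 2.73e-05 from limma). Lce3f had 2.26 and 3.07 FPKM in WT and 118.3 and 103.1 FPKM in DKO. Lce3c, the most abundant of them, had 70.3 and 79.3 FPKM in WT and 1085 and 526 FPKM in DKO. Both DKO libraries were above both WT libraries for these genes, although the Lce1 sum differed 2.66-fold between the same DKO libraries. Lce3e (listed as 2310001H18Rik), Lce3b and Lce3a were the other three that rose.

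Of the 4 Lce1 genes outside the 10, the level relative to the members' mean separated the DKO libraries for 3. By this measure 0.574% of all tested genes had both DKO libraries above and 1.08% below the other 7. Lce1k was higher in both DKO libraries than in the other 7, by a mean of 0.80, and Lce1l by 0.60. Lce1m, the most abundant Lce1 gene of the table with 4985 and 4126 FPKM in WT and 3655 and 901 FPKM in DKO, was lower in both (a mean difference of -0.998), and its neighbour Crct1 was lower as well (a difference of -0.63). Lce1j, Lce6a and Kprp overlapped between DKO and the other libraries. These genes were chosen for this measure after their values were seen.

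**Figure D5:**
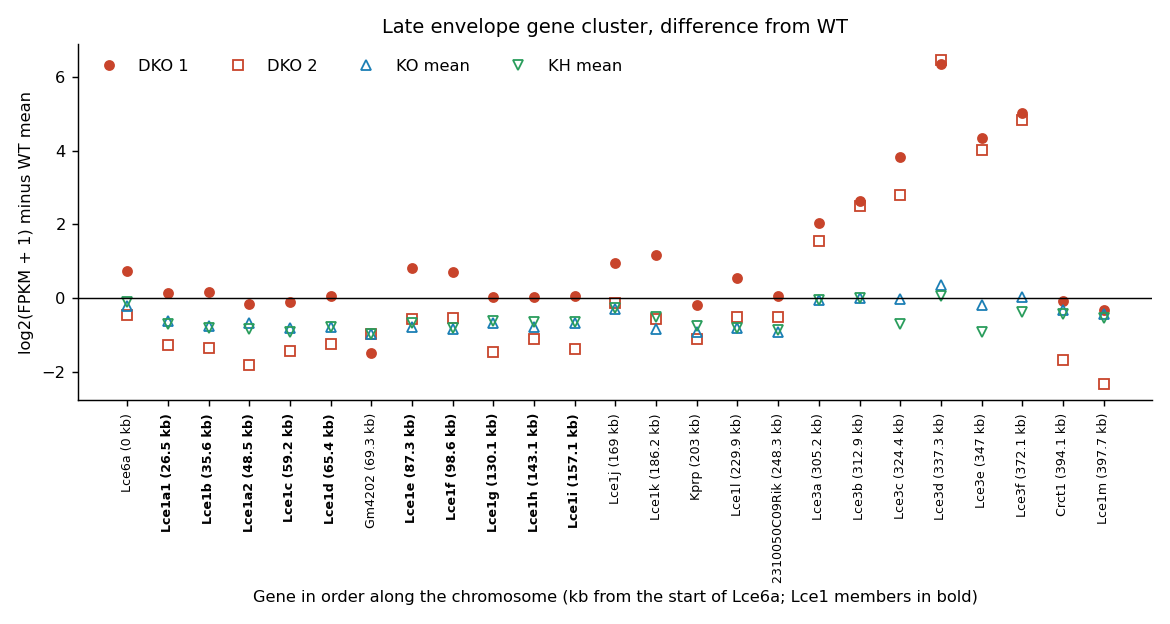
Difference from the WT mean in log2(FPKM + 1) (vertical) for the tested genes of the cluster in their order along the chromosome (horizontal, with the distance in kb from the start of Lce6a and the 10 Lce1 members in bold), with filled circles for DKO replicate 1, open squares for DKO replicate 2 and triangles for the KO and KH means. DKO replicate 2 lies below 0 at each of the 10 Lce1 members and DKO replicate 1 near or above it, and both lie above 0 at the 6 Lce3 genes.

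Other precursors of the envelope were compared too. Of 20 precursor genes 5 rose in DKO against WT (0.479% of all genes were called higher) and none was called lower, with a median log2 difference of -0.09 over the 20. At an unadjusted p below 0.05 there were 10 of 20, against 13.8% of all genes. The 5 were Rptn (repetin), Sprr2d and Sprr1b (small proline-rich proteins), Crnn (cornulin) and Tchhl1. Rptn had 13.4 and 14.8 FPKM in WT and 320.7 and 287.8 FPKM in DKO. The 5 others below an unadjusted p of 0.05, named after their values were seen, were not called by limma: Sprr1a had a log2 difference of 2.91 (adjusted p = 0.14), while Hrnr (-1.66), Tchh (-1.48), Scel (-1.23) and Ppl were lower in the mean of DKO, with adjusted p between 0.20 and 0.29. No precursor was called in KO or KH. Of 12 cross-linking and processing enzymes none was called in any comparison with WT, and 2 had an unadjusted p below 0.05 in each of them, with the shares of all genes given above, the median differences being -0.54 in DKO, -0.61 in KO and -0.52 in KH. The most abundant of the 12 in WT was Asprv1, a protease that processes filaggrin, with a mean of 8157 FPKM in WT and 4908 FPKM in DKO (adjusted p = 0.63 from limma). Of 20 regulators of late differentiation none was called, with 2 at an unadjusted p below 0.05 in DKO and none in KO or KH. Grhl1, named after its values were seen, had 131.5 and 118.1 FPKM in WT and 43.0 and 41.6 FPKM in DKO. The paper reports reduced Grhl1 transcript in DKO, also by RT-PCR, so the lack of a call here does not mean an unchanged level. Klf4, a transcription factor required for barrier formation, had a mean of 253.9 FPKM in WT and 174.4 FPKM in DKO (adjusted p = 0.47 from limma).

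The genes whose pattern over the 9 libraries was most like that of the Lce1 group were Tmprss13 (a membrane serine protease, r = 0.99), Fxyd6, Otop3, Desi1 and Sbsn (suprabasin, a protein of differentiating keratinocytes), with Pearson r of 0.98 for the last 4, out of 12187 genes averaging at least 1 FPKM. Tmprss13 had 76.0 and 72.9 FPKM in WT, 32.7, 71.3 and 77.2 FPKM in KO, 32.3 and 87.6 FPKM in KH, and 77.5 and 46.2 FPKM in DKO. Sbsn had 1937 and 1587 FPKM in WT, 753, 1708 and 1816 FPKM in KO, 741 and 2376 FPKM in KH, and 1932 and 1109 FPKM in DKO. The same 3 libraries were the lowest in both genes. The 9 points share their libraries and the scaling between them, so the coefficients are a description only.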

How the data were processed

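RNA from 9 libraries of E18.5 mouse epidermis (WT 2, KO 3, KH 2, DKO 2; TruSeq Stranded mRNA kit, paired reads of 100 bases) was analysed from the table of the authors. The authors aligned reads to the mm10 genome using Ensembl release 72 gene models (TopHat v1.4.1) and deposited FPKM per gene as computed by Cuffdiff v2.2.0. How Cuffdiff scaled libraries is not given in the sources used here. FPKM holds no counts, so the depth behind a value is unknown and no counting interval is given.

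Libraries were grouped by their labels. Genes averaging above 0.1 FPKM in at least 1 genotype were fitted as log2(FPKM + 1) with limma 3.58.1 in R 4.3.3 (4 genotype means, all 9 libraries, 5 residual degrees of freedom, intensity trend, no covariate), with Benjamini-Hochberg adjustment over all tested genes. Fold changes on this scale understate those of low genes. Calls required an adjusted p below 0.05 and more than 2-fold in average FPKM, and the fit was tested on simulated data. Permutation tests were exact and two-sided. The members and all gene lists were chosen with earlier results of these data known. Named genes were all members, the targeted genes, up to 5 called genes per list (or the most abundant in WT) and the 5 closest patterns; others were chosen after their values were seen. Alternatives numbered 19, of which 9 left out 1 library each, with 2 added after seeing the data. Promoters came from RefSeq, gene models from GENCODE M21. Protein sequences were not used here.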

Additional observations from a re-analysis of the deposited data

How the results depend on the processing

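No Lce1 member was called in any of the 6 comparisons under any of 19 alternatives, with the 3 libraries of lowest FPKM sum left out or with the second block described last. Median differences from WT kept their sign under these except without DKO replicate 2 (DKO), without KH replicate 1 (KH) and, for both DKO (0.07) and KH (0.18), without the 3 libraries. Without KH replicate 2, 2 members in KH against WT (9.81% of all genes) and 1 in DKO against KH (8.27%) had an unadjusted p below 0.05. Without the 3 libraries 1 did in DKO against WT (Lce1e, with 13% of all genes) and 2 in DKO against KO (8.92%). Leaving out single libraries moved the DKO median between -1.31 and 0.07, the KO median between -1.03 and -0.19 and the KH median between -1.70 and 0.18. In DKO against WT, the value of Lce1e ranged from -0.56 to 0.82 and that of Lce1f from -0.54 to 0.70 over single libraries left out, turning below 0 without WT replicate 2 (-0.02 and -0.16) and without DKO replicate 1. Without DKO replicate 2, and identically without the 3 libraries of lowest FPKM sum, Lce1a1 (0.13), Lce1b (0.16), Lce1d (0.0726), Lce1g (0.0273), Lce1h (0.0277) and Lce1i (0.0712) turned above 0, and without DKO replicate 1 they were at -1.27, -1.35, -1.24, -1.46, -1.11 and -1.38. Relative to the Lce1 mean, Lce1h turned to 0.0005 without KH replicate 1 and to 0.0896 without DKO replicate 1, Lce1d to 0.0087 without DKO replicate 1 (-0.0702 without DKO replicate 2) and Lce1b to 0.0078 without DKO replicate 2 (-0.12 without DKO replicate 1). For Lce1e, Lce1f and Lce1a2 that measure kept its sign throughout, but with 1 DKO library, or without the 3 low ones, the smallest exact permutation p is 0.125 or 0.167.

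Replicate numbers of the titles did not pair the libraries: of 12 same-numbered pairs, whose deviations correlated between -0.60 and 0.49, 4 exceeded 0.1. With the replicate number as a block no member was called, the KO median was -1.03 (KO replicate 3 has no partner), the KH against KO median 0.26 (10 of 10 members above 0) and the calls over all genes in DKO against WT numbered 67 in place of 123. They numbered 400 with only DKO and WT fitted, 556 with arrayWeights and 95 without a trend. With 2 or 3 libraries a genotype and a within-genotype SD of 0.95 for the members' mean, differences smaller than the 95% intervals were not detectable. Larger ones could also go uncalled, as Esrp1 did in KO against WT (-2.15, standard error 0.38, adjusted p = 0.37 from limma).

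The descriptions number some libraries otherwise, and a block by those numbers was chosen after seeing the data. They gave 6 pairs, of which 4 exceeded 0.1 (-0.24 to 0.57). These 4 were the pairs among KO, KH and DKO (0.347 to 0.573), while those with WT replicate 1 were at 0.036 and -0.241. The KO and KH libraries with number 1 there are the low ones, and those of KO, KH and DKO with number 2 are not. Under that block, with 1 residual degree of freedom and 3 libraries (WT replicate 2, KO replicate 3 and DKO replicate 2) without a partner, the median difference from WT was -1.75 in DKO, -2.08 in KO and -1.82 in KH, with all members below 0, including Lce1e (-1.01) and Lce1f (-1.41) in DKO. An unadjusted p below 0.05 was then reached by 8, 10 and 10 members (9.69%, 12.4% and 8.68% of all genes), and by 1 in DKO against KO (5.13%), the lowest adjusted p being 0.40 (limma), and no gene of the table was called in DKO against WT. The median of DKO against KH was -0.08 under that block, with 3 of 10 members above 0.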

Other observations

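Gm4202, a gene annotated between Lce1d and Lce1e, did not follow its neighbours. It had 162.9 and 328.9 FPKM in WT, 116.4, 61.5 and 230.6 FPKM in KO, 148.9 and 91.6 FPKM in KH, and 81.4 and 117.1 FPKM in DKO, so that KH replicate 1, low for all 10 Lce1 members, was the higher KH library for Gm4202. Relative to the Lce1 mean it varied between -4.19 and -1.48 over the 9 libraries. A further shared feature lies inside the first exon: GATCTTG begins 26 to 32 bases after the start in all 9 members with a RefSeq window, and in Lce1j, out of 22 windows of 32851 (0.067%) with it in that interval.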
